A study of Mus musculus with 8 samples.

Results

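The Il10 cytokine cluster of mouse chromosome 1 was followed region by region in an ATAC-seq count table, in which each value is the number of reads over an open stretch of DNA. The members were chosen by symbol: every distinct region on chromosome 1 that the table assigns to Il10, Il19, Il20, Il24 or Mapkapk2. This gave 20 of the 46624 distinct regions of the table, 13 assigned to Il10 and 7 to Mapkapk2, and 0 to Il19, Il20 or Il24. The cells were sorted from C57BL/6 mice in which a red fluorescent protein (RFP) reports Foxp3, the transcription factor that defines regulatory T cells (Tregs). The 4 groups were Tregs (RFP+) of male visceral adipose tissue (VAT), Tregs (RFP+) of female VAT, CD4+ T cells without the reporter (RFP-) of male VAT, and Tregs (RFP+) of male spleen. Each group had 2 libraries, each made from cells pooled from 3 mice, and all groups carried the reporter allele. The labels give no age and no treatment, and they do not say whether the 2 libraries of a group came from separate pools. There were no female spleen libraries among those analysed, so female VAT could be set only against male spleen, where tissue and sex differ together and cannot be told apart.

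Il10 encodes interleukin-10, a cytokine that Tregs and other T cells secrete and that restrains inflammation through the receptor chains Il10ra and Il10rb, the kinases Jak1 and Tyk2 and the transcription factor Stat3. Il19, Il20 and Il24 are related cytokines that signal mainly to epithelial cells, and Mapkapk2 encodes MK2, a kinase activated by p38 that stabilises cytokine mRNAs through proteins such as Zfp36. Tregs of visceral fat are known as a tissue population with high Il10 expression, but accessibility is not expression, and no RNA was measured here.

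The promoter windows of the cluster differed in whether a region covered them, and the 3 that RefSeq's table holds (GRCm38.p6, the 250 bases before a start, 5′ to 3′, CpG pairs in capitals) are shown for that contrast. A region assigned to Mapkapk2 overlapped the first, and none overlapped the other two. All lie on the minus strand, at chr1:131097844-131098093 for Mapkapk2, chr1:130940116-130940365 for Il19 and chr1:130911297-130911546 for Il20. The Il19 window lies inside the span of that gene, chr1:130932656-130945457, and not at either end of it.
Mapkapk2: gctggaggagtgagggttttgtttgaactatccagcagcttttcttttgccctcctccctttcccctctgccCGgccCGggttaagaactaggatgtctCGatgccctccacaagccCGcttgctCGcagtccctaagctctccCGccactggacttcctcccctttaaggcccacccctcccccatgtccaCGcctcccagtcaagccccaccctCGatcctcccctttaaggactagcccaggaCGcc
Il19: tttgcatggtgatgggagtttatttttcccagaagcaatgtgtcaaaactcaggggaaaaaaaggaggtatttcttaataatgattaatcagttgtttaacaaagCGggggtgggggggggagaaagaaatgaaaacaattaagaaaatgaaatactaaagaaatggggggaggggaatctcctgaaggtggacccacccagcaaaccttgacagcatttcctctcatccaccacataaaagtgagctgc
Il20: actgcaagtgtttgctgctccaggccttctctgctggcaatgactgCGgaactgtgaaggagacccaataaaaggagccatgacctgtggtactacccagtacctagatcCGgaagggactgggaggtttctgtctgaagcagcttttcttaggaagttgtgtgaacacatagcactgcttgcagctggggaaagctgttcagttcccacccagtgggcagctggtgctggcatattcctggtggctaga
The Mapkapk2 window held 9 CpG pairs and 60.4% G and C, against 1 CpG pair and 42.0% in the Il19 window and 2 CpG pairs and 52.8% in the Il20 window. Over all 32817 windows of the table, 40.6% overlapped a region. That share was 9.88% for windows with 0 to 2 CpG pairs, 19.5% with 3 to 6, 50.7% with 7 to 12 and 80.6% with 13 or more. Of 5 motifs searched on both strands, the STAT motif TTCNNNGAA occurred once in the Il19 window (7.01% of all windows) and the ETS motif CCGGAAG once in the Il20 window (6.9%). None of the 3 windows held the GC box GGGCGG (32.7% of all windows), the TATA box TATAAA (12.4%) or the AP-1 motif TGANTCA (6.75%).

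The count table held 5722254 to 15798875 usable counts per library. Male VAT Treg replicate 1 stood apart from the others: regions under 1000 bp took up 5.55% of its counts but 4.22% of those of replicate 2 and 3.60 to 4.37% of those of the other groups. Its CPM (counts scaled to the library total and by the trimmed mean of M values, TMM) exceeded those of replicate 2 at all 9 tested Il10 regions under 1000 bp, by a ratio of 1.06 to 3.01 (median 1.80). Over all autosomal regions under 1000 bp the median ratio was 1.26, and the Il10 medians of the other groups were 1.09 in female VAT Tregs, 0.691 in VAT CD4 cells and 1.06 in spleen Tregs. The calls at the cluster's regions and the counts or medians over the gene lists are therefore also given without this library. The part of its short-region share in the results was not tested. Summed CPM over the 53 regions of 5 Treg genes (Foxp3, Il2ra, Ikzf2, Ctla4, Tnfrsf18) was 640 and 439 CPM in male VAT Tregs, 559 and 568 CPM in female VAT Tregs, 362 and 440 CPM in VAT CD4 cells, and 453 and 476 CPM in spleen Tregs. For T cell genes (19 regions, 4 of 4 genes) the sums in male VAT Treg replicates 1 and 2 were 199 and 147, against 176 to 230 in the other groups. They were 129 and 92.9 for B cell genes (10 regions, 6 of 7), against 112 to 135, and 206 and 155 for myeloid genes (14 regions, 5 of 8), against 172 to 218. CD8 and NK genes (7 regions, 3 of 6) gave 113 and 101, against 105 to 117, adipocyte genes (11 regions, 4 of 5) 81.7 and 76.6, against 97.3 to 110, and stromal genes (25 regions, 6 of 6) 198 and 210, against 200 to 226. Male VAT Treg replicate 2 was thus the lowest library in 5 of these 6 lists, all but the stromal one, and the part of this in the results was not tested. Ms4a1, Csf1r, Adgre1, Lyz2, Cd8a, Ncr1, Klrd1 and Lep had no region. Fewer cells of a type and fewer open copies per cell cannot be told apart in these bulk samples.

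All open DNA of the cluster lay around Il10 and Mapkapk2. Coordinates are of build mm10 (GRCm38), as the table gives them. Il10 spans chr1:131019845-131024970, and regions are named by the distance of their centre from its first base, with positive values in the direction of Mapkapk2, which spans chr1:131053700-131097871. From chr1:130865632 to chr1:130987638, over 122 kb, the table held no region, and this stretch contains Il24, Il20 and Il19. Il24 lay 16.4 kb, Il20 41.4 kb and Il19 42.2 kb from the nearest region. A table of called regions shows only what passed the authors' calling, so no signal level can be given for these 3 genes. No region covered the first base of Il10 either: the first one inside the gene began 913 bp after it.

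**Figure D1:**
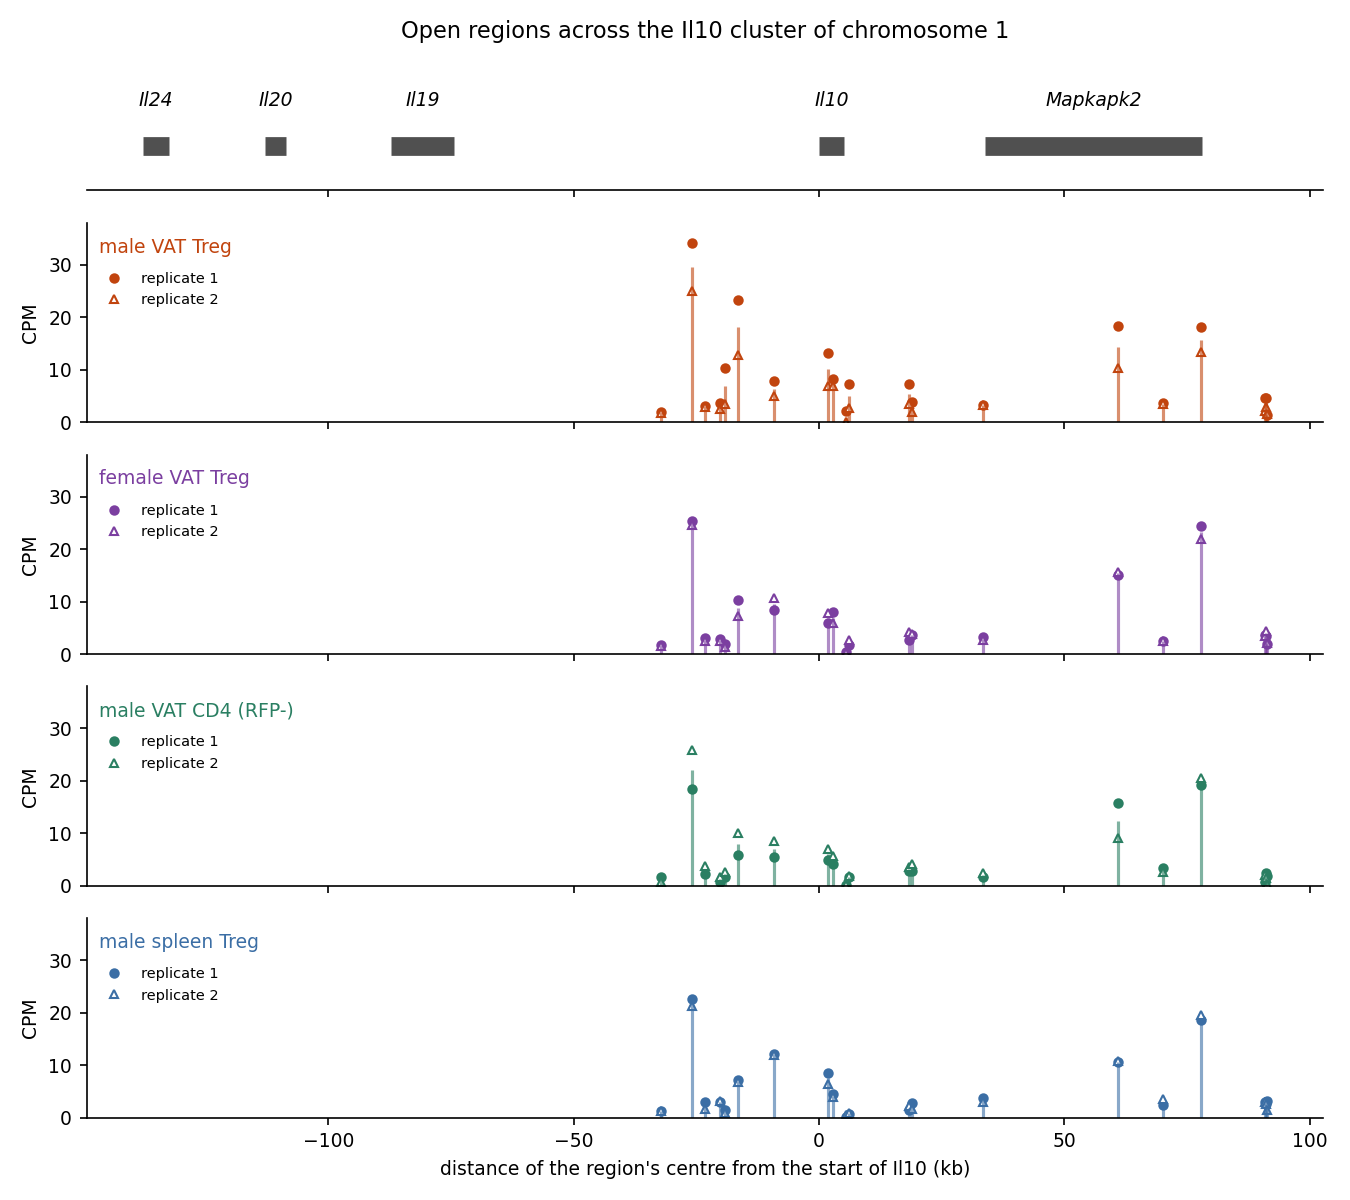
CPM of the 20 regions by the distance of their centre from the start of Il10 in kb, in 1 panel per group, with gene bodies above; bars are means of 2 libraries, circles replicate 1 and triangles replicate 2. Regions stand from -32.1 kb to 91.3 kb, with none over Il24, Il20 or Il19, and the highest mean CPM of every group is at -25.9 kb.

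Upstream of Il10, 7 regions lay within 32.1 kb of its start, and the 2 at -19.2 kb and -16.4 kb were the ones called in all 3 comparisons of male VAT Tregs. A region was called at a Benjamini-Hochberg adjusted p under 0.05 in edgeR's quasi-likelihood test over all 45709 regions kept. The -19.2 kb region (chr1:131000459-131000804, 345 bp) held 10.3 and 3.41 CPM in male VAT Tregs, 1.99 and 1.41 CPM in female VAT Tregs, 1.73 and 2.74 CPM in VAT CD4 cells, and 1.58 and 0.896 CPM in spleen Tregs. Both male VAT Treg libraries lay above all 6 others, replicate 1 far above and replicate 2 just above the higher CD4 library. The log2 fold change was 2.58 ± 0.42 over spleen (± is a standard error, adjusted p = 3.21e-07), 2.03 ± 0.41 over female VAT (adjusted p = 0.000201) and 1.62 ± 0.42 over VAT CD4 cells (adjusted p = 0.00398). After leaving out male VAT Treg replicate 1 these became 1.53, 0.99 and 0.58, with adjusted p of 0.129, 0.460 and 0.743, and no call held. The call over female VAT was also lost without female VAT Treg replicate 2 (adjusted p = 0.0617), and that over CD4 cells without CD4 replicate 1 (0.107), with TMM taken from autosomal regions under 1000 bp (0.0617) or in the DESeq2 Wald test (0.0974).

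The -16.4 kb region (chr1:131003172-131003795, 623 bp) had the highest signal per length of the cluster in male VAT Tregs, a mean of 29.0 CPM per kb, against 14.2 in female VAT Tregs, 12.9 in VAT CD4 cells and 11.2 in spleen Tregs. It held 23.3 and 12.9 CPM in male VAT Tregs, 10.4 and 7.28 CPM in female VAT Tregs, 5.97 and 10.1 CPM in VAT CD4 cells, and 7.15 and 6.75 CPM in spleen Tregs. Again both male VAT Treg libraries were above the other 6. Its log2 fold change was 1.40 ± 0.23 over spleen (adjusted p = 6.73e-07), 1.05 ± 0.23 over female VAT (adjusted p = 0.00115) and 1.16 ± 0.25 over CD4 cells (adjusted p = 0.000216). On leaving out male VAT Treg replicate 1 the values were 0.90, 0.54 and 0.65, with adjusted p of 0.0520, 0.379 and 0.256. The call over female VAT was lost as well without female VAT Treg replicate 2 (0.217), with the short-region TMM (0.0855) or in the Wald test (0.0952). That over CD4 cells was lost without CD4 replicate 1 (0.0660) or with the short-region TMM (0.0535).

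None of the other upstream regions was called higher, and only at -32.1 kb were both male VAT Treg libraries again above the other 6. The -20.1 kb region (chr1:130999725-130999858), 601 bp before the -19.2 kb region, held 3.61 and 2.45 CPM in male VAT Tregs, 2.79 and 2.58 CPM in female VAT Tregs, 0.770 and 1.73 CPM in VAT CD4 cells, and 3.03 and 3.16 CPM in spleen Tregs. All 6 Treg libraries were above both CD4 libraries there, and the log2 fold change of male VAT over spleen Tregs was -0.01 ± 0.41 (adjusted p = 0.994), against 1.24 ± 0.51 over CD4 cells (adjusted p = 0.135, not called). The -25.9 kb region, 3653 bp wide, had the most counts of the Il10 regions: 34.1 and 25.0 CPM in male VAT Tregs, 25.3 and 24.6 CPM in female VAT Tregs, 18.5 and 25.8 CPM in VAT CD4 cells, and 22.7 and 21.3 CPM in spleen Tregs. It was not called in any comparison, with log2 fold changes of male VAT Tregs of 0.44 ± 0.19 over spleen, 0.25 ± 0.19 over female VAT and 0.41 ± 0.20 over CD4 cells. The regions at -32.1 kb and -23.2 kb were low in every group, between 0.721 and 3.75 CPM, and were not called. At -32.1 kb male VAT Tregs held 2.03 and 1.81 CPM, and the next library, female VAT Treg replicate 1, held 1.80 CPM. The log2 fold changes there were 0.56 ± 0.56 over spleen, 0.16 ± 0.56 over female VAT and 0.70 ± 0.63 over CD4 cells.

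The -9.1 kb region went the other way and was the only one of the cluster called lower. This region of 2765 bp (chr1:131009324-131012089) held 7.86 and 5.01 CPM in male VAT Tregs, 8.48 and 10.7 CPM in female VAT Tregs, 5.58 and 8.51 CPM in VAT CD4 cells, and 12.1 and 12 CPM in spleen Tregs. Both spleen libraries exceeded all 6 VAT libraries, and both female VAT Treg libraries exceeded both male ones. The log2 fold change of male VAT over spleen Tregs was -0.87 ± 0.25 (adjusted p = 0.0116), that over female VAT -0.54 ± 0.26 (adjusted p = 0.314) and that of female VAT over spleen -0.34 ± 0.25 (adjusted p = 0.781). After leaving out male VAT Treg replicate 1 the change over spleen was -1.26 and still called. It was no longer called without male VAT Treg replicate 2 (-0.62, adjusted p = 0.192), without spleen replicate 1 (0.0770) or 2 (0.105), or in the DESeq2 Wald test (0.110).

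**Figure D2:**
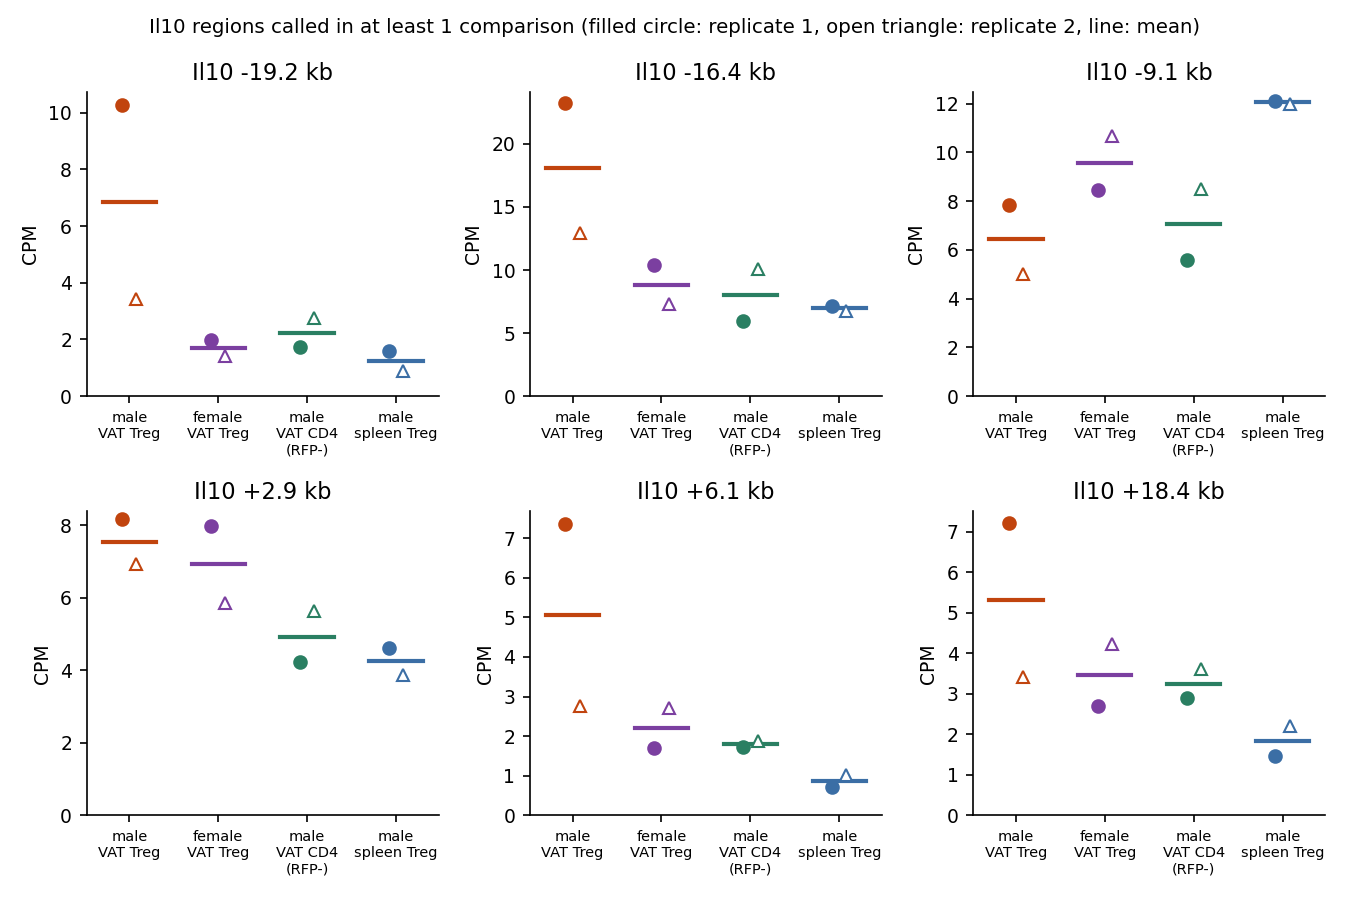
CPM per library at the 6 Il10 regions called in at least 1 comparison, each on its own axis from 0; circles are replicate 1, triangles replicate 2 and lines the mean of 2 libraries. Male VAT Treg replicate 1 is the highest library at 5 of the 6 regions, and spleen Tregs are the highest at -9.1 kb.

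Inside Il10 there were 2 regions, 8 bp apart, with different values. The wider one at 1.8 kb (chr1:131020758-131022559) held 13.2 and 6.93 CPM in male VAT Tregs, 5.98 and 7.86 CPM in female VAT Tregs, 5.01 and 7.07 CPM in VAT CD4 cells, and 8.61 and 6.51 CPM in spleen Tregs. Male VAT Treg replicate 1 stood alone above the others, replicate 2 lay among them, and there was no call (0.47 ± 0.25 over spleen, 0.58 ± 0.26 over female VAT, 0.75 ± 0.28 over CD4 cells, adjusted p of 0.306, 0.269 and 0.0835). The narrow one at 2.9 kb (chr1:131022567-131022953, 386 bp) held 8.17 and 6.93 CPM in male VAT Tregs, 7.98 and 5.87 CPM in female VAT Tregs, 4.24 and 5.63 CPM in VAT CD4 cells, and 4.61 and 3.88 CPM in spleen Tregs. Here the 4 VAT Treg libraries of both sexes were above the 4 libraries of the other groups. On the log2 scale the change over spleen was 0.86 ± 0.29 in male VAT Tregs (adjusted p = 0.0499) and 0.73 ± 0.30 in female VAT Tregs (adjusted p = 0.330, unadjusted 0.0151), and that of male over female 0.13 ± 0.28 (adjusted p = 0.920). The male call was at the threshold and was lost in 10 of 16 alternatives, among them without male VAT Treg replicate 1 (0.73, adjusted p = 0.231) and without either spleen library (0.122 and 0.358).

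After the end of Il10, the regions at 6.1 kb and 18.4 kb were the only 2 of the cluster at which all 6 VAT libraries lay above both spleen libraries. The share of all regions with that separation was not counted. The 6.1 kb region (chr1:131025755-131026084) begins 785 bp after the gene and held 7.35 and 2.77 CPM in male VAT Tregs, 1.70 and 2.70 CPM in female VAT Tregs, 1.73 and 1.88 CPM in VAT CD4 cells, and 0.727 and 1.02 CPM in spleen Tregs. Its log2 fold change was 2.51 ± 0.46 over spleen (adjusted p = 9.14e-06) and 1.52 ± 0.47 over CD4 cells (adjusted p = 0.0210). Over female VAT it was 1.25 ± 0.42 and not called (adjusted p = 0.0784), although it was called in a fit of these 2 groups alone (0.0312) and without male VAT Treg replicate 2 (1.75, adjusted p = 0.00755). Without male VAT Treg replicate 1 the values over spleen and CD4 cells were 1.61 and 0.61, with adjusted p of 0.142 and 0.754. The call over CD4 cells was also lost without CD4 replicate 1 (0.148) or 2 (0.130), with the short-region TMM (0.0961), in the Wald test (0.163) and in limma-voom (0.0916). Female VAT Tregs over spleen gave 1.26 ± 0.51 (adjusted p = 0.319, unadjusted 0.0140).

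The 18.4 kb region (chr1:131038122-131038449), 13.2 kb after the gene, held 7.22 and 3.41 CPM in male VAT Tregs, 2.69 and 4.22 CPM in female VAT Tregs, 2.89 and 3.61 CPM in VAT CD4 cells, and 1.45 and 2.21 CPM in spleen Tregs. The 3 VAT groups overlapped each other. Male VAT Tregs were 1.51 ± 0.39 above spleen on the log2 scale (adjusted p = 0.00364), a value of 0.84 without male VAT Treg replicate 1 (adjusted p = 0.350) and a call also lost without spleen replicate 1 (0.0844) or in the Wald test (0.0628). Female VAT Tregs over spleen gave 0.85 ± 0.41 (adjusted p = 0.496). The region beside it, 19 kb from the start of Il10, ran from 1.73 to 4.18 CPM over the 8 libraries, with no call.

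The smallest Il10 region after the gene, 81 bp at 5.6 kb, did not pass the low-count filter and was the only one of the 20 left untested. It had 33 and 1 counts in male VAT Tregs. The summed count of 34 was 3.75 times that of spleen after scaling (95% interval 1.76 to 8.90, counting error only), but nearly all of it came from replicate 1.

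Mapkapk2 had 7 regions, and edgeR, DESeq2's Wald test and limma-voom each called 0 of them in all 4 comparisons. Of all regions, edgeR called 6.73% for male VAT Tregs against spleen, 3.26% against female VAT and 7.69% against CD4 cells. For female VAT against spleen it called 1.38%. With 7 regions, 0 calls do not set Mapkapk2 apart from these shares. At an unadjusted p under 0.05 edgeR had 1 higher over spleen, 1 lower against female VAT, 2 higher over CD4 cells, and 1 higher for female VAT over spleen. The share of all regions at this unadjusted threshold was not counted. The promoter region at 77.9 kb (chr1:131095849-131099558), which overlaps the window shown above, held 18.2 and 13.3 CPM in male VAT Tregs, 24.4 and 21.9 CPM in female VAT Tregs, 19.3 and 20.6 CPM in VAT CD4 cells, and 18.7 and 19.5 CPM in spleen Tregs. Male VAT Tregs were below all 6 other libraries, by a log2 fold change of -0.54 ± 0.20 against female VAT (adjusted p = 0.130), -0.33 ± 0.21 against CD4 cells and -0.27 ± 0.20 against spleen. Without male VAT Treg replicate 1 the difference from female VAT was -0.80 and called (adjusted p = 0.0360). The wide region inside the gene at 61.0 kb held 18.2 and 10.3 CPM in male VAT Tregs, 15.1 and 15.7 CPM in female VAT Tregs, 15.8 and 9.09 CPM in VAT CD4 cells, and 10.5 and 10.7 CPM in spleen Tregs. The female VAT Treg libraries were both above spleen there (0.53 ± 0.22, adjusted p = 0.366, unadjusted 0.0190), and the male ones spanned both spleen values.

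Of the 5 small Mapkapk2 regions, 3, at 33.5 kb, 90.8 kb and 91.1 kb, were lower in both CD4 libraries than in every Treg library. How many of all regions show this order was not counted. The 90.8 kb region (chr1:131110549-131110722) held 4.63 and 2.24 CPM in male VAT Tregs, 3.59 and 3.52 CPM in female VAT Tregs, 0.770 and 2.16 CPM in VAT CD4 cells, and 3.03 and 2.93 CPM in spleen Tregs. The log2 fold change of male VAT Tregs over CD4 cells was 1.20 ± 0.48 (adjusted p = 0.115), 0.99 ± 0.45 at 91.1 kb (adjusted p = 0.204) and 0.65 ± 0.45 at 33.5 kb (adjusted p = 0.513), none of them called. The regions at 70.1 kb and 91.3 kb ran from 0.288 to 3.74 CPM over all libraries. All 5 together summed to 17.7 and 13.3 CPM in male VAT Tregs, 14.8 and 15.3 CPM in female VAT Tregs, 10.4 and 9.09 CPM in VAT CD4 cells, and 15.0 and 13.6 CPM in spleen Tregs. In this sum both CD4 libraries lay below the 6 Treg libraries, which overlapped. Across the table, narrow regions were also higher in male VAT Tregs than in CD4 cells. The median log2 fold change of male VAT Tregs over CD4 cells was 0.23 over all autosomal regions under 1000 bp, against -0.07 over longer ones. Without male VAT Treg replicate 1 the narrow-region median was 0.06. With all libraries it was 0.12 over spleen Tregs and 0.13 over female VAT Tregs, so it was not particular to CD4 cells.

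**Figure D3:**
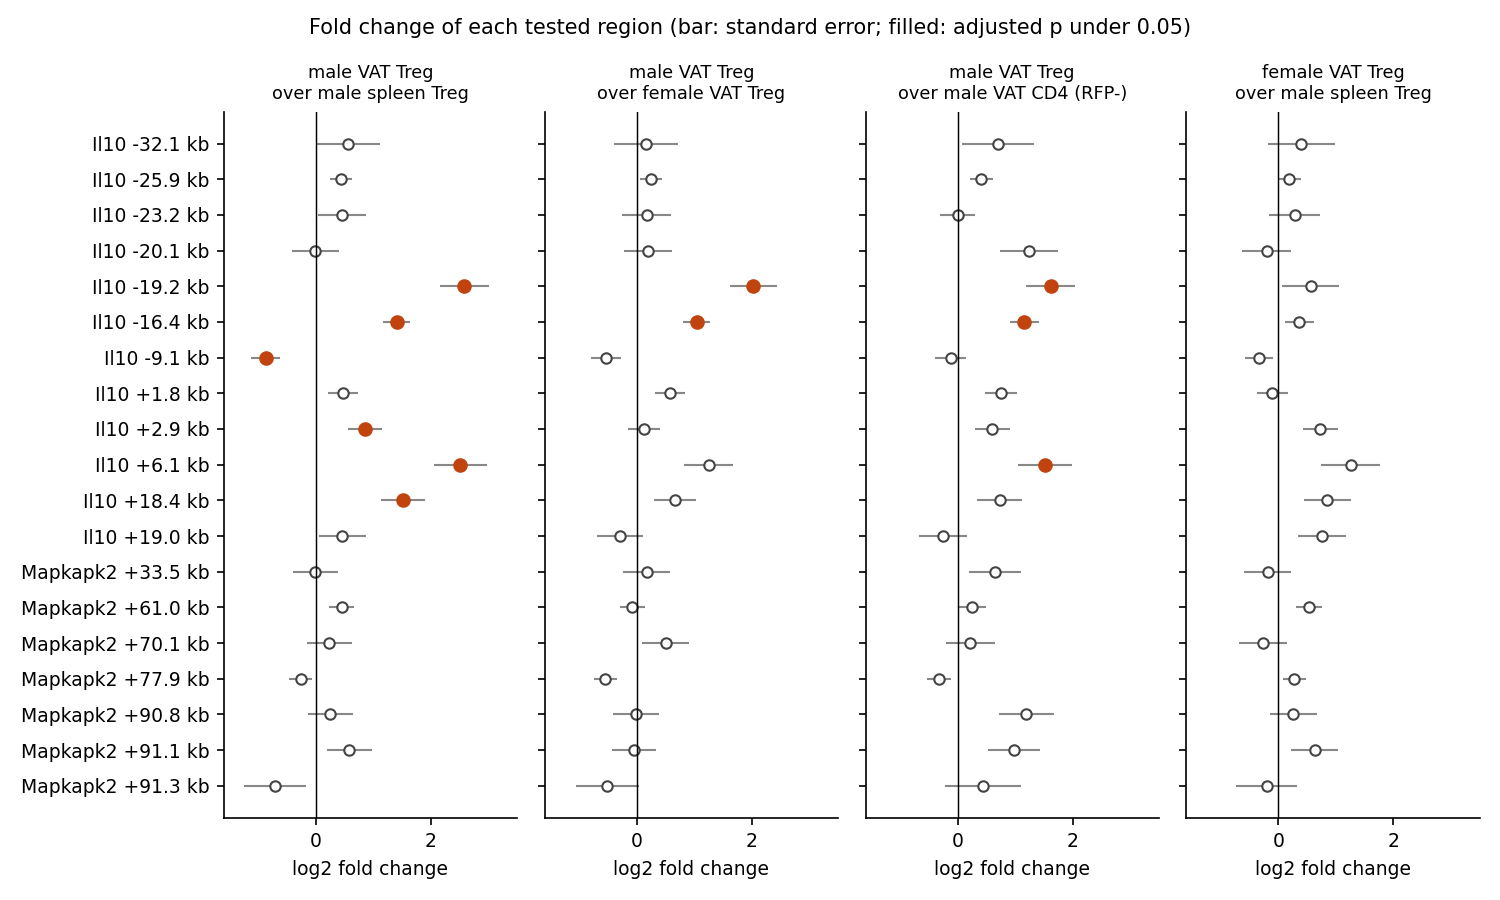
Log2 fold change of the 19 tested regions in order of position, in 4 comparisons; points are estimates, bars standard errors, and filled points have an adjusted p under 0.05. Filled points stand at Il10 regions alone, 6 over spleen, 2 over female VAT, 3 over VAT CD4 cells and 0 for female VAT over spleen.

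Counted over the cluster, male VAT Tregs had 5 regions higher and 1 lower than spleen Tregs among 19 tested, where 4.64% of all regions were called higher and 2.09% lower. The median log2 fold change was 0.52 over the 12 tested Il10 regions and 0.24 over Mapkapk2, beside -0.01 over all regions. Of the 9 Il10 regions under 1000 bp 5 were called higher, where 10.2% of all regions of that width were. Against female VAT 2 were higher and 0 lower (2.04% and 1.21% of all regions), with medians of 0.22 for Il10, -0.05 for Mapkapk2 and 0.01 for all. Against VAT CD4 cells 3 were higher and 0 lower (5.18% and 2.51%), with medians of 0.72, 0.45 and -0.02. The higher calls over female VAT and CD4 cells were all at Il10 regions under 1000 bp. Of all regions of that width, 4.68% were higher over female VAT and 10.3% over CD4 cells. The comparisons with spleen, female VAT and CD4 cells share the male VAT Treg libraries. For female VAT over spleen edgeR called 0 regions, where 1.18% of all were higher and 0.197% lower; DESeq2's Wald test and limma-voom also gave 0. At an unadjusted p under 0.05, 4 were higher and 0 lower, and the medians were 0.38 for Il10, 0.26 for Mapkapk2 and 0.00 for all. The share of all regions at the unadjusted threshold was not counted, so the 4 cannot be set against it. Without male VAT Treg replicate 1, none of the 10 higher calls of male VAT Tregs held, and the lower call at -9.1 kb did. The Il10 medians in that fit were 0.44 over spleen, 0.00 over female VAT and 0.33 over CD4 cells, and the Mapkapk2 medians -0.04, -0.46 and 0.54.

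**Figure D4:**
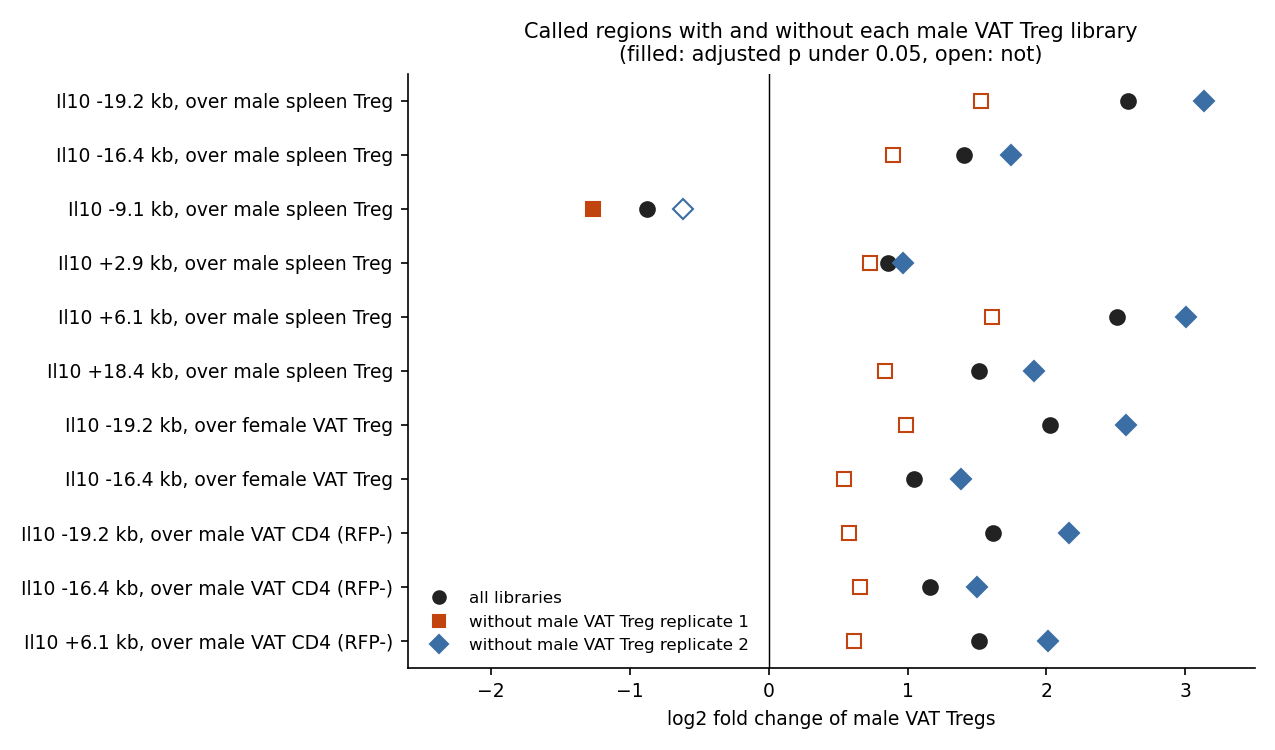
Log2 fold change of male VAT Tregs at the 11 calls of the cluster with all libraries (circles), without male VAT Treg replicate 1 (squares) and without replicate 2 (diamonds); filled symbols have an adjusted p under 0.05. Leaving out replicate 1 opens every symbol on the right of 0, and leaving out replicate 2 opens the -9.1 kb one.

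Summed over each gene, Il10 had 126 and 75.7 CPM in male VAT Tregs, 76.1 and 75.3 CPM in female VAT Tregs, 53.5 and 75.9 CPM in VAT CD4 cells, and 69.1 and 62.9 CPM in spleen Tregs. Male VAT Treg replicate 2 lay among the female VAT and CD4 libraries, and both VAT Treg groups lay above spleen. In order of the mean the groups ran from male VAT Tregs (101 ± 35.7, SD, n = 2) to female VAT Tregs (75.7 ± 0.540), spleen Tregs (66.0 ± 4.36) and VAT CD4 cells (64.7 ± 15.8), and only female VAT and spleen Tregs were neighbours without overlap. The exact two-sided permutation p was 0.333 for male VAT and for female VAT against spleen, the smallest that 2 against 2 allows, and 0.667 against female VAT and CD4 cells. Mapkapk2 summed to 54.1 and 37.0 CPM in male VAT Tregs, 54.3 and 52.9 CPM in female VAT Tregs, 45.5 and 38.8 CPM in VAT CD4 cells, and 44.3 and 43.9 CPM in spleen Tregs, and here female VAT Tregs had the highest mean. The 10 narrow Il10 regions summed to 71.0 and 38.8 CPM in male VAT Tregs, 36.3 and 32.2 CPM in female VAT Tregs, 24.5 and 34.5 CPM in VAT CD4 cells, and 25.7 and 23.2 CPM in spleen Tregs. Both male VAT Treg libraries exceeded the other 6 in this sum, while the sums of the 3 wide regions overlapped between all groups. The means of the wide sums ran from 46.1 CPM in male VAT Tregs to 35.2 CPM in VAT CD4 cells.

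**Figure D5:**
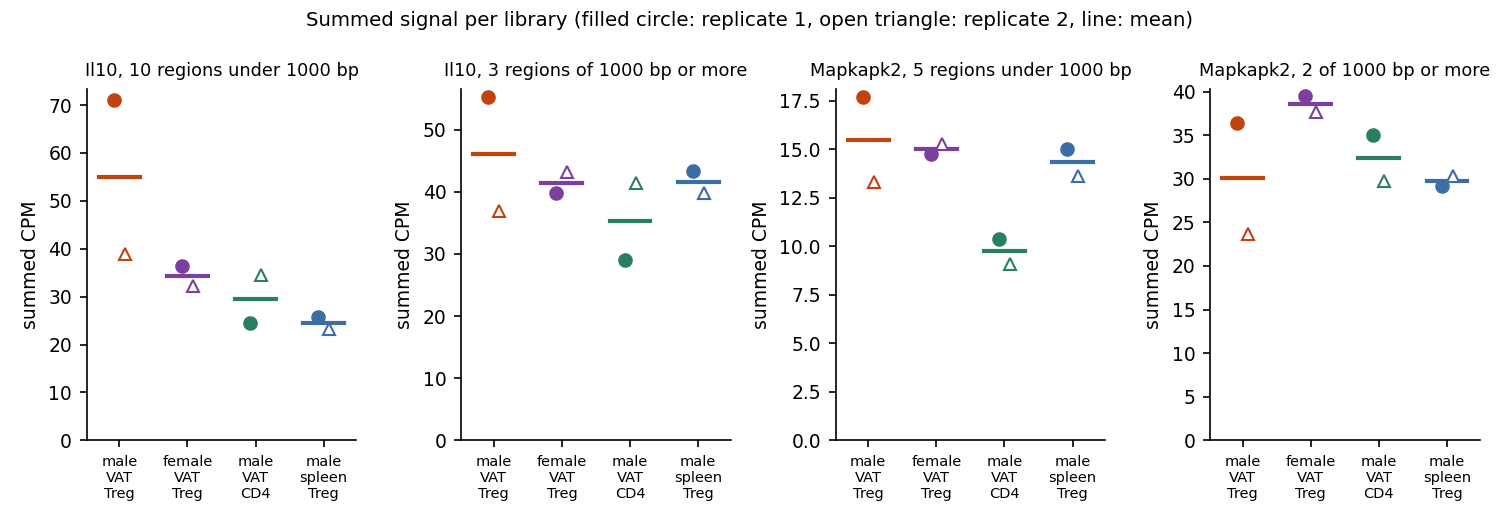
Summed CPM per library of the Il10 and Mapkapk2 regions under 1000 bp and of 1000 bp or more, with axes from 0; circles are replicate 1, triangles replicate 2 and lines means. The 10 narrow Il10 regions reach 71.0 and 38.8 in male VAT Tregs, against at most 36.3 in any other library.

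The pathway around the cluster was described by lists of 41 genes, of which 37 had a region, 218 in all. Male VAT Tregs had 25 of these regions higher (11.5%) and 2 lower (0.917%) than spleen Tregs, where 4.64% of all regions were higher and 2.09% lower (6.73% in either direction). Against female VAT Tregs 8 were higher (3.67%, against 2.04% of all regions) and 0 lower (3.26% of all regions in either direction). Over VAT CD4 cells 31 were higher (14.2%, against 5.18%) and 12 lower (5.5%, against 2.51%, and 7.69% in either direction). Female VAT Tregs had 7 higher than spleen (3.21%, against 1.18%) and 0 lower (1.38% in either direction). Without male VAT Treg replicate 1 the regions of the lists called in either direction were 7 over spleen (3.21%), 6 over female VAT (2.75%) and 19 over CD4 cells (8.72%). In that fit 3.94%, 3% and 3.63% of all regions were called, so that the lists were below the share of all regions over spleen and female VAT and above it over CD4 cells. Higher calls were then fewer in each of these comparisons. As shares they lay above those of all regions over spleen and CD4 cells and below over female VAT. That fit rests on 1 male VAT Treg library. Median log2 fold changes over the lists were 0.08 over spleen, 0.13 over female VAT and 0.22 over CD4 cells, and -0.12, -0.09 and -0.03 without that library; for female VAT over spleen the median was 0.02.

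Receptors and signalling genes held 65 regions of 11 genes. In male VAT Tregs 5 were higher (7.69%) and 1 lower than in spleen Tregs, where 4.64% of all regions were higher. Against female VAT 2 were higher (3.08%, against 2.04%), both at Il10ra, and 0 lower. Over CD4 cells 8 were higher (12.3%, against 5.18%) and 8 lower (12.3%, against 2.51%). The lower ones were at Il20ra, Il20rb, Jak1, Socs3 and Stat3. Median log2 fold changes were -0.03, 0.01 and 0.17, and -0.26, -0.14 and -0.08 without male VAT Treg replicate 1. A region inside Il10ra, the ligand-binding chain of the IL-10 receptor, was called in all 3 comparisons of male VAT Tregs. It lies at chr9:45264518-45264885 and held 9.06 and 2.67 CPM in male VAT Tregs, 0.898 and 0.821 CPM in female VAT Tregs, 0.770 and 0.433 CPM in VAT CD4 cells, and 0.727 and 0.418 CPM in spleen Tregs. As at the -19.2 kb Il10 region, both male VAT Treg libraries were above the rest, replicate 1 most. Its log2 fold change was 3.47 ± 0.52 over spleen (adjusted p = 2.11e-08), 2.79 ± 0.50 over female VAT (adjusted p = 1.33e-05) and 3.35 ± 0.59 over CD4 cells (adjusted p = 2.72e-06), and 2.27, 1.62 and 2.16 without replicate 1 (adjusted p of 0.0948, 0.335 and 0.184).

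Stat3, the transcription factor downstream of that receptor, had a region inside the gene (chr11:100934078-100934471) with 6.46 and 4.27 CPM in male VAT Tregs, 3.69 and 4.11 CPM in female VAT Tregs, 1.16 and 1.44 CPM in VAT CD4 cells, and 0.242 and 0.418 CPM in spleen Tregs. VAT Tregs of both sexes were above CD4 cells, and these above spleen Tregs. The log2 fold change over spleen was 3.89 ± 0.52 in male VAT Tregs (adjusted p = 1.82e-10) and 3.41 ± 0.54 in female VAT Tregs (adjusted p = 5.66e-07), and both calls held in each of the 16 alternatives. A second Stat3 region (chr11:100891759-100891836) was lower in male VAT Tregs than in CD4 cells, with 0.317 and 0.533 CPM against 2.70 and 4.18 CPM (-3.06 ± 0.69, adjusted p = 0.000480), a call kept without male VAT Treg replicate 1 and lost without CD4 replicate 2 (0.0589).

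Regulators known to bind or induce Il10 in T cells held 121 regions of 13 genes, with 17 higher (14%) and 1 lower in male VAT than in spleen Tregs, 6 (4.96%) and 0 against female VAT, and 19 (15.7%) and 4 against CD4 cells, where 4.64%, 2.04% and 5.18% of all regions were higher. After leaving out male VAT Treg replicate 1, the higher regions were 3, 1 and 6 (2.48%, 0.826% and 4.96%) and the lower ones 0, 1 and 4, where 1.67%, 0.543% and 1.86% of all regions were higher. Nfil3, a basic leucine zipper factor, was assigned a region 17.7 kb from the gene (chr13:53000623-53000874) with 7.03 and 4.59 CPM in male VAT Tregs, 2.69 and 2.23 CPM in female VAT Tregs, 1.16 and 1.15 CPM in VAT CD4 cells, and 0.485 and 0.836 CPM in spleen Tregs. The groups did not overlap and the change over spleen was 3.04 ± 0.47 in male VAT Tregs (adjusted p = 5.37e-08, kept without replicate 1) and 1.79 ± 0.51 in female VAT Tregs (adjusted p = 0.0418, lost in 11 alternatives, among them without each of the spleen and VAT Treg libraries but male VAT Treg replicate 2). Prdm1, the gene of Blimp-1, was assigned a region 148.49 kb away (chr10:44677048-44677179) with 3.86 and 1.81 CPM in male VAT Tregs, against 0.299 and 0.352 CPM in female VAT Tregs (3.11 ± 0.75, adjusted p = 0.00329). It did not hold without male VAT Treg replicate 1 (0.183) or without either female library (0.143 and 0.0903). Ahr, a ligand-activated factor, was assigned a region 63.4 kb away (chr12:35598349-35598516) with 2.91 and 2.67 CPM in male VAT Tregs, against 0.199 and 0.469 CPM in female VAT Tregs (3.05 ± 0.76, adjusted p = 0.00522), a call kept without male VAT Treg replicate 1 and lost without female VAT Treg replicate 1 (0.241) or 2 (0.0574).

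Further calls at these regulators were lost on leaving out 1 of several libraries or in other tests. The same Prdm1 region was 2.78 ± 0.79 higher than in CD4 cells on the log2 scale (adjusted p = 0.00996), lost without male VAT Treg replicate 1 (0.295), CD4 replicate 1 (0.113) or 2 (0.116), in the Wald test (0.0633) or in limma-voom (0.0668). Another one, 80.7 kb from Prdm1 (chr10:44609296-44609459), was 2.81 ± 0.75 higher in male VAT than in spleen Tregs (adjusted p = 0.00589). Leaving out male VAT Treg replicate 1 (0.181) or spleen replicate 2 (0.134) ended this call. Rbpj, the nuclear effector of Notch, was assigned a region 52.0 kb away (chr5:53503577-53503752). VAT CD4 cells held 2.50 and 0.865 CPM there, and spleen Tregs 0.364 and 0.358 CPM. Male VAT Tregs held 2.53 and 1.28 CPM at this Rbpj region, against 0.399 and 0.117 CPM in female VAT Tregs. Its log2 fold change was 2.81 ± 0.82 (adjusted p = 0.0284), lost without male VAT Treg replicate 1 (0.302) or either female library (0.148 and 0.433), with the short-region TMM (0.0708), in the Wald test (0.148) and in limma-voom (0.0847). Gata3, a factor of type 2 T cells, was assigned a region 172.9 kb away (chr2:9683945-9684180). Female VAT Tregs held 1.99 and 1.29 CPM there, and spleen Tregs 0.121 and 1.49 CPM. Male VAT Tregs held 3.93 and 1.07 CPM at this Gata3 region, against 0.385 and 0.144 CPM in VAT CD4 cells. There the change was 3.32 ± 0.83 (adjusted p = 0.00242), lost without male VAT Treg replicate 1 (0.401) or CD4 replicate 2 (0.106), in the Wald test (0.0750) or in limma-voom (0.0768). Ets1, a factor abundant in lymphocytes, was assigned a region 148.5 kb away (chr9:32906339-32906757). Female VAT Tregs held 8.78 and 11.5 CPM there, against 4.36 and 3.82 CPM in spleen Tregs (1.32 ± 0.27, adjusted p = 0.000467). That call was lost without female VAT Treg replicate 2 or spleen replicate 2. Male VAT Tregs (9.82 and 8.32 CPM) and VAT CD4 cells (9.63 and 11.0 CPM) lay near the female VAT Tregs at this Ets1 region.

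The p38 and MK2 pathway, in which the product of Mapkapk2 acts, had 31 regions of 11 genes. Over spleen 3 were higher in male VAT Tregs (9.68%, against 4.64% of all regions), at Dusp1, a phosphatase of p38, and at Mapkapk3, the closest relative of Mapkapk2. No region of the list was called against female VAT, and over CD4 cells 4 were higher (12.9%, against 5.18%), at Map2k6, Mapkapk3 and Zfp36l1. None of the list was higher in these 3 comparisons without male VAT Treg replicate 1, and 1, 2 and 1 were lower. The only region of the other listed cytokines, assigned to both Il22 and Iltifb, was not called.

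Beyond the cluster, the region assigned to Faim3 that closes the empty stretch (chr1:130863374-130865631) held 4.88 and 4.05 CPM in male VAT Tregs, 8.28 and 6.22 CPM in female VAT Tregs, 5.20 and 6.20 CPM in VAT CD4 cells, and 11.0 and 10.3 CPM in spleen Tregs. Its order of groups was that of the -9.1 kb Il10 region. In edgeR it was also called lower in male VAT than in spleen Tregs (-1.24 ± 0.27, adjusted p = 0.000377). On the other side, a region assigned to Dyrk3 and Eif2d (chr1:131145034-131145305) held 5.58 and 2.24 CPM in male VAT Tregs, 0.199 and 1.53 CPM in female VAT Tregs, 0.770 and 1.01 CPM in VAT CD4 cells, and 0.242 and 0.0597 CPM in spleen Tregs. Across the 8 libraries, the genes whose log2 summed CPM (with 0.5 added) was most like that of Il10 among 13834 genes were Parp14 (Pearson's r = 0.989), Ptpn2 (0.983), Tnfrsf1b (0.982), Panx1 (0.980) and Nfkb1 (0.980). Without male VAT Treg replicate 1 these were 0.970, 0.933, 0.927, 0.942 and 0.925 over 7 libraries. The points share libraries and depth, 91 genes had r above 0.9, and Mapkapk2 had 0.389.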

How the data were processed

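ATAC-seq had been done on sorted T cells in 8 libraries, 2 per group. The values used are the raw, unnormalised counts per region that the authors deposited, on build mm10 (GRCm38) per the labels. Subread 1.6.2, HOMER 4.9, featureCounts and limma are listed in the submitters' processing notes, with no role given; how regions were called and assigned to genes is not given in the sources used here. Per-library log2 files were not used. The 62205 entries were reduced to 46624 distinct regions, of which 46512 lay on chromosomes 1 to 19, X and Y, and edgeR's filterByExpr kept 45709.

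All libraries (5722254 to 15798875 counts) were fitted together by quasi-likelihood in edgeR 4.0.16 under R 4.3.3 (TMM factors 0.907 to 1.06, 1 coefficient per group, 4 residual degrees of freedom), and p-values were adjusted by Benjamini-Hochberg across the regions kept. Standard errors were taken as log2 fold change over the root of F. With no word on separate pools, p-values measure the spread between these libraries, which may be technical. The alternatives were scaling by library size alone, by DESeq2 size factors or by TMM of autosomal regions under 1000 bp, leaving out the low-count filter, the Wald test of DESeq2 1.42.0, limma-voom 3.58.1, each library left out, a replicate block, and a fit of the 2 groups compared.

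All member regions were described, with values in every library for those called; of the pathway lists, up to 4 called genes per comparison with the largest absolute log2 fold change were named. The result of 1 such gene is not reported here. The members and lists were chosen with earlier results of these data known. Whether starts count from 0 or 1 is not stated.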

Additional observations from a re-analysis of the deposited data

How the results depend on the processing

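With 2 libraries per group and CPM often under 10, differences at single narrow regions were read from few counts. DESeq2 size factors, library size alone, no low-count filter and limma-voom left the counts of cluster calls within 1.5 times. In the DESeq2 Wald test male VAT Tregs had 3 regions higher and 0 lower than spleen, 1 higher than female VAT and 1 higher than CD4 cells. TMM on regions under 1000 bp moved the median log2 fold change of all regions to -0.17 over spleen, -0.11 over female VAT and -0.25 over CD4 cells; 1 region was then higher than in female VAT and 0 than in CD4 cells. That scaling split the whole table into 1260 higher and 1493 lower over spleen (2121 and 957 as reported), 463 and 554 over female VAT (934 and 555), and 1166 and 1917 over CD4 cells (2368 and 1146).

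Leaving out each library gave 0 to 8 regions higher and 0 to 1 lower over spleen, 0 to 4 higher and 0 to 1 lower over female VAT, and 0 to 6 higher over CD4 cells. The lowest higher counts came without male VAT Treg replicate 1, without female VAT Treg replicate 2 (over female VAT) and without CD4 replicate 1 (over CD4 cells); the highest came without male VAT Treg replicate 2, and spleen was at 3 without spleen replicate 1. The summed cluster CPM of male minus female VAT Tregs, 17.2, ran from -16.5 (without male VAT Treg replicate 1) to 50.9 (without replicate 2). Female VAT over spleen stayed at 0 calls throughout. The 27 pathway calls over spleen became 13 in the Wald test. Calls over spleen in the whole table fell there too, from 2121 higher and 957 lower to 1113 and 249. On leaving out a library the pathway calls moved below and above 27, and the higher calls of the whole table below and above 2121.

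Same-numbered libraries did not deviate together (r of -0.07, -0.11, -0.19 and 0.01 over 45709 regions), so numbers were not taken to pair them. A replicate block gave 1829 higher and 663 lower regions over spleen in the whole table, and in the cluster 4 higher and 1 lower, the 2.9 kb region being lost (adjusted p = 0.0788); the other comparisons of the cluster kept 2, 3 and 0 higher.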
